A study of Mus musculus with 12 samples.

Results

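The effect of the cactus extract N-CE on gene expression in mouse back skin after 3 weeks (3W) was measured on 2 arrays of the 12 in the series. The mice were male C57BL/6J, 8 weeks old, with a shaved back. One group of 6 received 200 µL per day of N-CE, a cell extract of Notocactus ottonis at 10%, and the control group of 6 received VC, the vehicle of propylene glycol, ethanol and water in which N-CE was given. RNA of each group was pooled, so each side of the comparison is 1 pool of 6 mice. Both pools were hybridized together on the 2 arrays with the dyes exchanged, which makes the arrays technical repeats of 1 comparison and leaves no test across mice. The first array below has N-CE in Cy5 and the second has N-CE in Cy3. Another pool, of mice given 3% MXD (minoxidil), was set against the same VC pool on 2 other arrays of the slide.

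Shaved back skin of mice passes through a hair cycle. In anagen, the growth phase, matrix cells of the follicle bulb divide and build the hair shaft, melanocytes of the bulb make pigment, and Wnt and Hedgehog signals act between the epithelium and the dermal papilla. In telogen the follicle rests. Whole back skin also holds epidermis, dermis, fat, the thin striated muscle under the skin, resident immune cells and blood, so that the RNA of all of them is in each pool. In such a pool, fewer cells of a type and less RNA per cell cannot be told apart.

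The values are log2 ratios of N-CE over VC from the processed signals, averaged over the spots of a probe, with the SD taken over the 2 arrays. This SD is technical. Of 41174 probes, 22700 were well above background in both dyes on both arrays, and they stood for 15461 genes. The array medians were close to 0, the median SD of a probe was 0.119 on the log2 scale, and probes printed 10 times on an array had a median SD of 0.035 and 0.032 among their copies. The log2 ratios of the arrays pointed the same way at 13570 probes, or 59.8%, and the Pearson correlation across probes, which share arrays and are no replicates, was 0.353. Skin markers differed in signal. In the 4 channels Krt14 lay between 48953 and 59884 and Col1a2 between 43916 and 83219. Pdgfra lay between 1668 and 2679 and Pecam1 between 183 and 271, and Lor and Tyr had no probe kept. All 3 brain markers, Gfap, Syt1 and Snap25, were not well above background in both pools.

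A probe is called up here when its fold was above 1.5 on both arrays and down when it was below 0.75 on both. There were 57 probes up, which is 0.251% of the probes measured, and 270 down, which is 1.19%. Among genes, each represented by its brightest probe, 36 were up (0.233%) and 177 were down (1.14%). Counts of called genes in the lists below stand against these shares. Counts above or below 0 stand against 7830 above and 7631 below of 15461 genes. The excess of falls went with the unequal folds: with 1.5 and its reciprocal, 57 probes were up and 61 down. The software's P under 0.01 on both arrays with a mean fold past the limits gave 55 up and 50 down, of which 47 and 50 were among the probes called here. Called probes were dimmer than the rest, with a median signal of 396.4 for those up and 258.2 for those down against 675.5 for all. Starting again from the mean signals, normexp followed by loess kept 18 of the 57 and 76 of the 270, and loess with no background correction kept 18 and 73. Both settings change the dye normalization together with the background step.

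**Figure D1:**
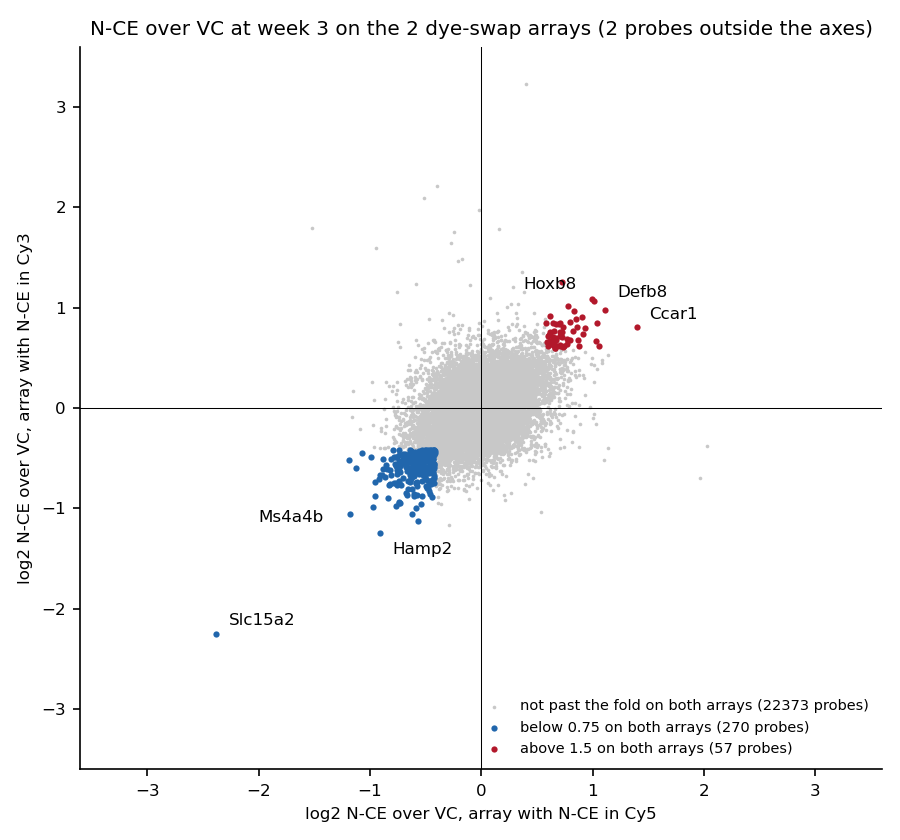
Log2 ratio of N-CE over VC for each probe on the array with N-CE in Cy5 (horizontal axis) and the array with N-CE in Cy3 (vertical axis), 1 point a probe. The 57 probes above 1.5 on both arrays are red and the 270 below 0.75 on both are blue, and Slc15a2 lies alone at -2.38 and -2.25.

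The VC pool of 3W was hybridized on 4 arrays, which gives a reference for differences between channels that hold the same RNA. With each channel scaled on its median, the VC channels of the N-CE arrays and of the MXD arrays differed past the same folds in both dyes at 913 of 22202 probes, 2.73% of them higher and 1.38% lower on the N-CE arrays. The median size of the log2 difference over the probes compared was 0.194, against 0.113 for the ratio of N-CE over VC. These are differences between arrays. A part common to both channels of a spot cancels in a ratio taken within an array. The comparison cannot tell that part from one of a single channel. Where such a difference is large for a gene named below, it is given.

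Slc15a2 had the largest change among the called probes. It encodes a transporter that takes up small peptides with protons. Its brighter probe read 167 for N-CE and 870 for VC on the first array, and 190 and 902 on the second. Both N-CE channels were thus far below both VC channels, with a log2 ratio of -2.32 ± 0.09 (SD, 2 arrays), or 0.201-fold. It was 1 of 2 probes that passed a fold of 0.5 on both arrays, the other being for Ms4a4b. The mean of this Slc15a2 probe was -1.78 after normexp and loess.

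Slc15a2 has a second probe on the array, and the sizes differed. It read 123 and 116 for N-CE against 152 and 165 for VC, a log2 ratio of -0.41 ± 0.15, and it was not called. To show that the probes read different stretches, the first 30 of 60 bases of both are printed in lower case, 5′ to 3′, the brighter one from chr16:36750603-36750662 and the dimmer one from chr16:36772528-36772587, both on the minus strand of mm9.
Slc15a2, brighter probe: ggtcagggaacgacgttgggaatattagga
Slc15a2, dimmer probe: gactagatacttctcggtcttctacctctc
Of the 22 genes in the list of peptide and amino acid transporters, 21 were measured, Slc15a2 was the 1 member called, and the list's median was 0.04. Slc15a1, which encodes the related intestinal peptide transporter, was at 0.29 and 0.32 and was not called. In the MXD pool at 3W the brighter Slc15a2 probe read 345 and 389 against 698 and 646 for VC. MXD and N-CE share this VC pool, so its level enters both ratios.

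Hoxb8, Mlana and Flg were the other genes followed through all comparisons, and all 3 were up. Hoxb8, a homeobox factor that gives position along the body axis, read 212 and 261 for N-CE against 105 and 125 for VC, a log2 ratio of 1.04 ± 0.04. Every N-CE channel exceeded every VC channel. Its second probe was not well above background. Mlana, a protein of the melanosome membrane, read 4279 against 2706 on the first array and 6249 against 4131 on the second, a log2 ratio of 0.63 ± 0.05. The second array was brighter in both pools, so that the VC channel there nearly reached the N-CE channel of the first array.

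Flg encodes filaggrin, which packs keratin filaments in the outer epidermis. It read 830 against 502 on the first array and 1559 against 953 on the second, a log2 ratio of 0.72 ± 0.01. The ratio was the same on both arrays although the signals were not: the VC pool alone spanned 502 to 953 on these arrays and 376 to 442 on the MXD arrays. After normexp and loess the log2 ratios of Flg were 0.58 and 0.65 and those of Mlana 0.64 and 0.58, so that each missed the fold on 1 array. Hoxb8 kept its call, at 0.65 and 0.71.

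**Figure D2:**
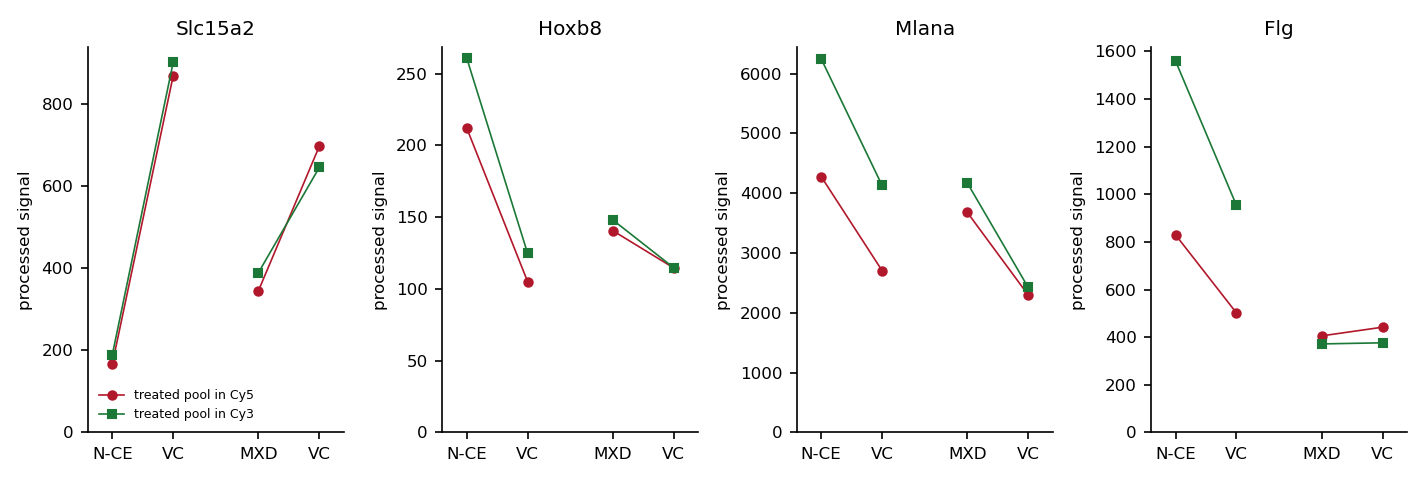
Processed signal (vertical axis, from 0) of the Slc15a2, Hoxb8, Mlana and Flg probes at 3W, with a line joining the treated and the VC channel of an array. Red circles are arrays with the treated pool in Cy5 and green squares those with it in Cy3. Slc15a2 fell from 870 and 902 in VC to 167 and 190 in N-CE, and the VC signals of Flg differed between arrays.

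Hoxb8 was the 1 gene called among 24 measured Hox genes, whose median was 0.16 ± 0.03. The genes were not alike by cluster. All 8 measured genes of the HoxB cluster had a mean above 0, from 0.16 for Hoxb3 to Hoxb8, with a median of 0.29. The 6 HoxC genes measured had a median of 0.00 and the 7 HoxA genes 0.02, with 3 and 4 of them above 0. These differences between clusters were not tested. Hoxb9 has 2 probes: the brighter was at 0.43 and 0.24 and the other was called, at 0.65 and 0.77. Hoxd4, at 0.54 and 0.51, was next to Hoxb8 in order and was not called.

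The replication-dependent histones had the highest median of the 52 lists. These genes sit in clusters, encode the H1, H2A, H2B, H3 and H4 proteins that package new DNA, and are expressed in S phase. Of 26 measured, 9 were up and none down, and 25 had a mean above 0, with a median of 0.54 ± 0.13 against 0.00 over all genes. Hist1h1e (H1f4) rose most. It read 871 against 457 on the first array and 1061 against 609 on the second, a log2 ratio of 0.87 ± 0.09. Hist1h2ab (H2ac4) read 2913 and 3870 for N-CE and 1607 and 2216 for VC, a ratio of 0.83 ± 0.04. Hist1h4d (H4c4) read 12118 and 12743 against 7597 and 7975, a ratio of 0.67 ± 0.00. In all 3 genes the N-CE channel was the higher one on both arrays, and the VC channels of Hist1h1e were higher on the N-CE arrays than on the MXD arrays by 0.56, those of Hist1h1d by 0.63, and those of Hist1h4a were lower by 0.63. The other genes up were Hist1h1a, Hist1h1b, Hist1h1d, Hist1h4a, Hist1h4f and Hist2h4. The H4 genes are near copies of each other, so that their probes may read several of them.

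Hist1h1c (H1f2) was the lowest of the list. It read 7906 against 8957 and 8682 against 9213, a log2 ratio of -0.13 ± 0.07. Of the genes up, 8 lie in the Hist1 cluster, whose called probes spanned chr13:21871923-23855947 on mm9, and they account for 9 of the 11 probes up on that chromosome. After normexp and loess, Hist1h1e, Hist1h2ab, Hist1h4a, Hist1h4d, Hist1h4f and Hist2h4 kept their calls, and the dim probes of Hist1h1a (0.22 and 0.28) and Hist1h1d (0.29 and 0.37) did not.

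The 5 H1 genes are shown by sequence because they split, 4 up and Hist1h1c not. Their promoters are known for the H1 box, AAACACA, which stands upstream of the CCAAT and TATA elements. The 150 bases before each start are from RefSeq on GRCm38.p6, with AAACACA in capitals.
Hist1h1a, chr13:23763518-23763667, plus strand: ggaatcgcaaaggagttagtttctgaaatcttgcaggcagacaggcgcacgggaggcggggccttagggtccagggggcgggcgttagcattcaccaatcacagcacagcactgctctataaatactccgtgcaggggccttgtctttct
Hist1h1b, chr13:21780626-21780775, minus strand: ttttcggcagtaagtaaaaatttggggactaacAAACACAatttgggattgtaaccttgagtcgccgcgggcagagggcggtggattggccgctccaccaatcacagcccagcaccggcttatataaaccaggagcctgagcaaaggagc
Hist1h1c, chr13:23738657-23738806, plus strand: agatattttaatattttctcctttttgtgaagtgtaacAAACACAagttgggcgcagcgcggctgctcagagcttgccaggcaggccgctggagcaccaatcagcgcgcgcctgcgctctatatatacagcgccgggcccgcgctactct
Hist1h1d, chr13:23554882-23555031, plus strand: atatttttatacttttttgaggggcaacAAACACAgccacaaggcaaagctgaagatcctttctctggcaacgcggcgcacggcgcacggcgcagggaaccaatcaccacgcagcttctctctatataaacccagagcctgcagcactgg
Hist1h1e, chr13:23622559-23622708, minus strand: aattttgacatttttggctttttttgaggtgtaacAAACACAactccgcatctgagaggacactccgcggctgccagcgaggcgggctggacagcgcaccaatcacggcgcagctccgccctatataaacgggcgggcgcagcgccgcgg
The box stood 112 to 122 bases before the start in 4 of the 5 promoters. Hist1h1a was up with no such letters in this window, and Hist1h1c held them and was not up. The calls of Hist1h1a and Hist1h1d were lost after normexp and loess. On either strand of the 250 bases before the start, 6.25% of 32851 RefSeq promoters held AAACACA, as did 7 of the 24 measured histone genes with a promoter in the table. A match of letters is a description and no evidence of binding.

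Other RNAs that lack an ordinary poly(A) tail or stay in the nucleus were also higher in N-CE. Replication-dependent histone mRNAs end in a stem-loop, and the labelling kit primes from poly(A). In a list of such RNAs put together after their values were seen, all 6 that were measured had a mean above 0 and 2 were up. BC115496 read 27365 and 79833 against 15925 and 39410, and AY036118 read 11135 and 14845 against 6165 and 8048. Of the 2 probes for Rn18s, the 18S ribosomal RNA, 1 was up at 0.73 and 1.26 and the other was at 0.70 and 0.44. They lie within chr17:39983322-39984118 on mm9, next to the BC115496 probe at chr17:39984942-39985001. The 6 RNAs may thus not all be separate. The 4 Malat1 probes had means of 0.42 to 0.75, with 1 called, and Rmrp was at 1.14 and 0.53. The part that RNA quality or priming had in the histone values was not tested.

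Pigment genes formed the next list. Melanocytes of the follicle make melanin in melanosomes through tyrosinase and its relatives Tyrp1 and Dct, on a fibril of Pmel. Of 16 genes measured, Mlana was up and none was down, 12 had a mean above 0, and the median was 0.42 ± 0.05. Oca2, which sets melanosome pH, was at 0.88 and 0.38. Dct read 19366 and 20701 against 11842 and 14766, a log2 ratio of 0.60 ± 0.16. Trpm1 was at 0.75 and 0.46, and Pmel at 0.55 and 0.45. Tyrp1 read 4825 and 5250 against 3310 and 3971, a ratio of 0.47 ± 0.10. These were above 1.5-fold on 1 array at most and were not called. Tyr itself was not well above background in both pools. The transport genes Rab32, Rab38, Myo5a and Rab27a lay at -0.13, -0.09, -0.05 and -0.03. Among regulators of the lineage, Pax3 was at 0.42 and 0.48, Mc1r at 0.45 and 0.39, and Mitf at 0.30 and 0.02. Sox10 read 0.40 on the first array and 3.23 on the second, so its mean of 1.81 rests on 1 array.

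**Figure D3:**
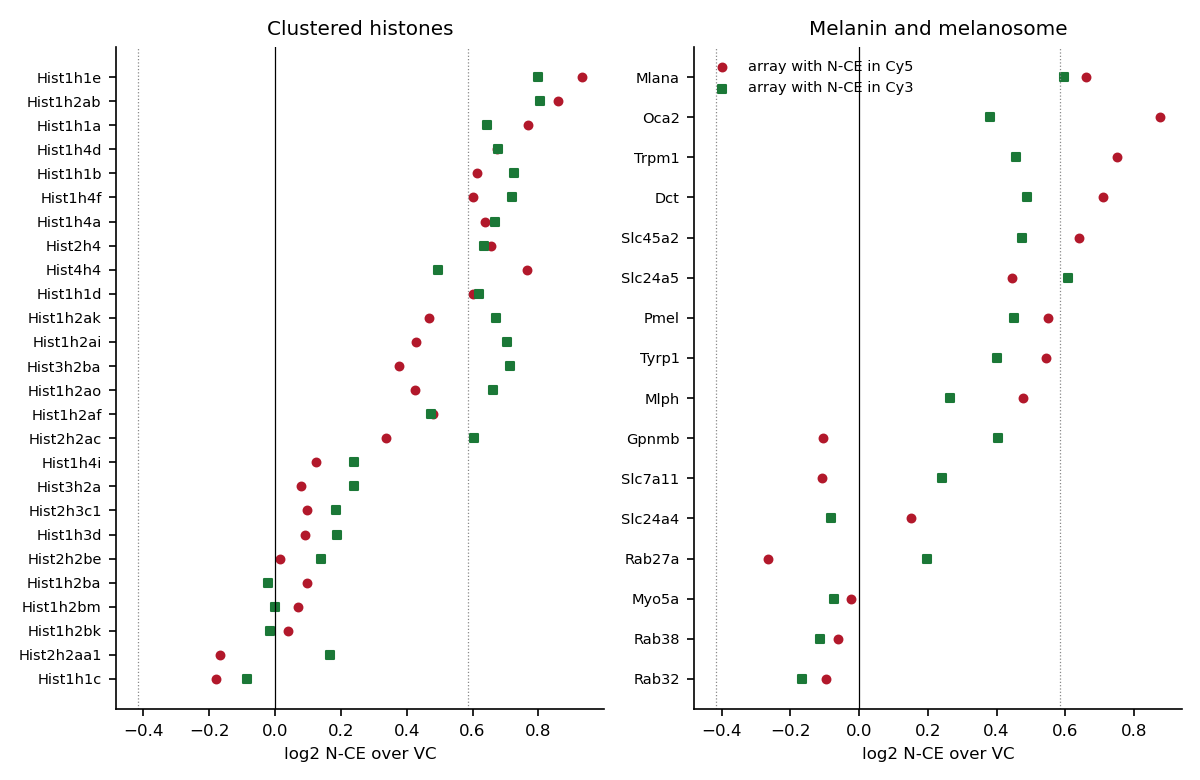
Log2 ratio of N-CE over VC (horizontal axis) for each measured gene of the clustered histones (left) and of melanin synthesis (right), with the array of N-CE in Cy5 as red circles and that of N-CE in Cy3 as green squares. Dotted lines mark folds of 0.75 and 1.5. The 9 histones up lie to the right of the 1.5 line on both arrays, and in the pigment list Mlana alone does.

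The melanocyte factor Mitf is known to bind an E-box with the core CATGTG. Promoters of 5 pigment genes with means of 0.47 to 0.63 are shown, picked after their values were seen because they hold this core. The 250 bases before each start are from RefSeq on GRCm38.p6, with CATGTG on either strand in capitals.
Tyrp1, chr4:80833963-80834212, plus strand: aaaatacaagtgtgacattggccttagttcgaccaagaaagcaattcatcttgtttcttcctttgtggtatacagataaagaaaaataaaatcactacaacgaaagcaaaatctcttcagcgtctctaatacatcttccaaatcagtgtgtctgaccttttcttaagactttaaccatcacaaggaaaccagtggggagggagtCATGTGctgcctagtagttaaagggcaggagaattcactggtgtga
Trpm1, chr7:64153585-64153834, plus strand: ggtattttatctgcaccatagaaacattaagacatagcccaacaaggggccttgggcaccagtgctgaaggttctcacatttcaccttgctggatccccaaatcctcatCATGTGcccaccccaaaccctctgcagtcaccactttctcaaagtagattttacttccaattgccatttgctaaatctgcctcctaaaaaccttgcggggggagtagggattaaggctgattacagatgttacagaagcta
Oca2, chr7:56239509-56239758, plus strand: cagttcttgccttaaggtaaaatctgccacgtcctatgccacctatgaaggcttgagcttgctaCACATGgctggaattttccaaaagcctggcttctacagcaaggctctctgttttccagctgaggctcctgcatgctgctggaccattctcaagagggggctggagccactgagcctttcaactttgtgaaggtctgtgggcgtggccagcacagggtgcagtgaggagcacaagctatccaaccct
Dct, chr14:118052247-118052496, minus strand: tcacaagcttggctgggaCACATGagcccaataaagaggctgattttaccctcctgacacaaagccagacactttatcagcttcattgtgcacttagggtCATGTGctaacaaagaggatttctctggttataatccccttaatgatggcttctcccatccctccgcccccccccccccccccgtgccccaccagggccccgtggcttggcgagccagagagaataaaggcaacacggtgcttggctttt
Slc24a5, chr2:125067877-125068126, plus strand: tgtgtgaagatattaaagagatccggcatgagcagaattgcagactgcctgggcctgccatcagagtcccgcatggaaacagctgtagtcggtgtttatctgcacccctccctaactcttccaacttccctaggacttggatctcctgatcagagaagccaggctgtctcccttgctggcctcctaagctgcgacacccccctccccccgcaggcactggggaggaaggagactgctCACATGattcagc
The core stood 46 bases before the start in Tyrp1, 141 in Trpm1, 186 in Oca2, 13 in Slc24a5, and 150 and 232 in Dct. Of the same 32851 promoters, each counted singly, 12.3% held this core. It was held by 6 of the 12 measured pigment genes with a promoter in the table, a gene counting if any of its promoters did. The sixth was Slc7a11, a cystine transporter with log2 ratios of -0.11 and 0.24. No promoter of Mlana was in the table.

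Genes of cell division and of the growing follicle were shifted upward by less than the fold that calls a gene. All 26 genes of DNA replication had a mean above 0, with a median of 0.25 ± 0.08 and none called. Uhrf1, which carries DNA methylation through replication, was the highest at 0.50 and 0.65. In mitosis, 29 of 30 genes had a mean above 0, with a median of 0.30 ± 0.06 and none called, and the highest was Kif20b at 0.63 and 0.42. Among genes chosen after their values were seen, the mitotic kinesin Kifc1 was up at 0.59 and 0.65. Of 3 Smc2 probes for a condensin subunit, 1 was up at 0.65 and 0.63 and the brightest was at -0.03 and 0.10.

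Anagen regulators had a median of 0.20 ± 0.13, with 24 of 27 above 0, and the Hedgehog pathway 0.22 ± 0.04, with 13 of 15 above 0. Ptch1, the Hedgehog receptor and target, was the highest at 0.43 and 0.69, at low signals of 68 and 94 against 50 and 58. Lef1, a transcription factor of the Wnt pathway, read 2775 against 2031 and 4031 against 2925, a ratio of 0.46 ± 0.01, and its second measured probe was at 0.61 and 0.44. The lists for dermal papilla and bulge had medians of 0.22 and 0.18. In the bulge list Fgf18, a growth factor of the follicle, was the highest at 0.49 and 0.48. None of these genes was called. Fgf2 and Pax6, other hair genes the study names, did not pass the filter on background, and Dsg4, a desmosomal cadherin of the hair shaft, was at 0.20 and 0.52.

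Genes for hair shaft proteins had medians nearer 0, and their difference from the regulators was not tested. The 10 hair shaft keratins had a median of 0.08 ± 0.10, from -0.26 for Krt34 to 0.33 for Krt82, and the inner root sheath genes -0.11 ± 0.06. Of 37 keratin-associated proteins, which cross-link the shaft, Krtap5-2 was up at 0.62 and 0.67, Krtap4-13 was down at -0.56 and -0.44, and the median was -0.05. Epidermal keratins had a median of -0.08. Flg was the highest of 42 genes of the cornified envelope, whose median was -0.09 and of which 31 lay below 0. Lce3f, a late envelope protein, was the lowest and was down at -0.54 and -0.96.

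**Figure D4:**
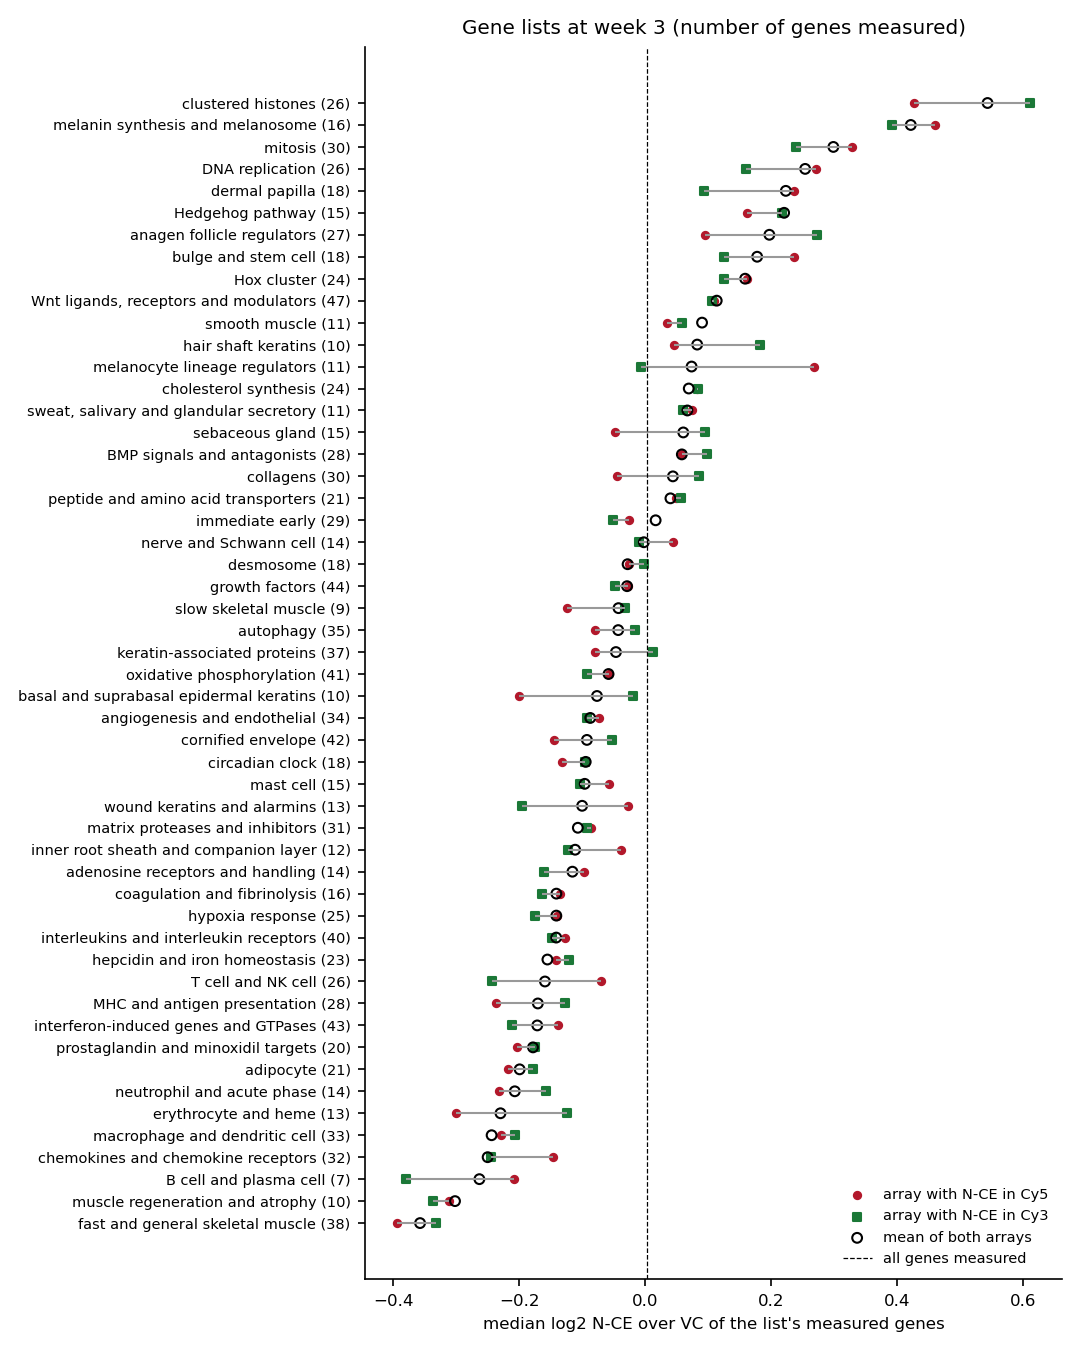
Median log2 ratio of N-CE over VC (horizontal axis) of the measured genes in each of 52 lists, with their number in brackets. Red circles and green squares are the arrays with N-CE in Cy5 and in Cy3, open circles the median over their means and the dashed line all genes. Clustered histones (0.54) stand highest and fast skeletal muscle (-0.36) lowest.

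Single genes also rose outside these lists. Of those named here, Syt4, Gnmt and Unc5b were chosen after their values were seen. Defb8, a beta-defensin, read 840 and 903 against 389 and 457, a log2 ratio of 1.05 ± 0.09. C7, a complement component, was at 1.06 and 0.62. Lalba, the milk protein alpha-lactalbumin, was at 0.80 and 0.86. Tspan10 was at 0.92 and 0.74, and Syt4, a synaptotagmin, was up on both of its probes. Gnmt, which uses S-adenosylmethionine to methylate glycine, read 1933 and 2030 against 1182 and 1196, a ratio of 0.74 ± 0.04. Unc5b, a netrin receptor, was at 0.62 and 0.92, and its VC channels were higher on the N-CE arrays than on the MXD arrays by 0.70. After normexp and loess Defb8 and Gnmt kept their calls. C7 (0.77 and 0.43), Lalba (0.35 and 0.59), Tspan10 (0.41 and 0.33), Unc5b (0.56 and 0.82) and both Syt4 probes did not.

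For other genes among the 12 highest, probes of the gene disagreed. Ccar1 had the highest mean, at 1.40 and 0.81, whereas its other measured probes were between 0.04 and 0.28 on each array. One of 5 Sbno1 probes was up, at 1.03 and 0.66, with the others between -0.23 and 0.50. Dsel was up on a probe reading 87 and 162 in N-CE, and its brightest probe was at -0.17 and 0.31. BC005537 was up on 1 probe of 3, at 1.04 and 0.85, and both brighter ones had means just below 0. Ncl and Ptms were likewise up on 1 probe each.

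Skeletal muscle genes had the lowest median of the 52 lists. All 38 genes of fast and general muscle were measured and all lay below 0 on both arrays, with a median of -0.36 ± 0.04, and 5 were down. Over all genes, 4638 of 15461 lay below 0 on both arrays. Mybpc1, a myosin-binding protein, read 2657 and 3214 against 4052 and 4934, a log2 ratio of -0.61 ± 0.01. Myh2, a fast myosin heavy chain, read 14366 and 14411 against 21098 and 22571, a ratio of -0.60 ± 0.07, while its dimmer probe, at -0.66 and -0.27, was not called. Acta1, skeletal actin, was at 53030 and 52925 against 72295 and 74437, a ratio of -0.47 ± 0.03. In these 3 genes both N-CE channels were below both VC channels. Myot and Xirp2 were the others down. Actn2, an actinin of the Z-disc, had the lowest mean, with ratios of -0.87 and -0.40 that passed the fold on 1 array. Tcap was the least lowered, at -0.35 and -0.08.

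Genes of muscle regeneration and atrophy followed. Myog (-0.42 and -0.60) and Myf6 (-0.49 and -0.45), factors of the myogenic program, and Trim63 (-0.57 and -0.45), a ubiquitin ligase of muscle atrophy, were down among 10 measured. Slow muscle genes had a median of -0.04, with Csrp3 down at -0.74 and -0.52. Muscle genes outside the lists, chosen after their values were seen, included Ankrd2 (-0.85 and -0.61), Ckmt2 (-0.64 and -0.60) and Xirp1 (-0.74 and -0.62). The homeobox factors Pitx1 and Pitx3 were down, with means of -0.65 and -0.53. In the MXD pool at 3W the fast muscle list had a median of -0.46. With N-CE its median was -0.08 at 1W and -0.40 at 2W, and with MXD -0.69 at 1W and -1.46 at 2W. Smooth muscle genes with N-CE at 3W, with a median of 0.09, did not fall with the fast muscle list. How much muscle each piece of skin held was not measured, and its part was not tested.

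Immune genes were lower in several lists. Of 33 macrophage and dendritic cell genes 30 lay below 0, with a median of -0.24 ± 0.02, and the brightest probe of none was called. Cd86, a costimulatory molecule, was the lowest at -0.65 and -0.40, and its other probe was down. Chemokines and their receptors had a median of -0.25 ± 0.07 with 4 of 32 down, against 1.14% of all genes. Ccl5, which draws T cells, read 179 and 192 against 297 and 371, a log2 ratio of -0.84 ± 0.16, and its other probe was down too. Normexp and loess put its brighter probe at -0.55. Ppbp, a platelet chemokine, was at -0.73 and -0.75 with signals of 36 to 83. Cxcl13, which draws B cells, was at -0.54 and -0.51. Cxcr4 was split, with its brighter probe at 0.23 and 0.23 and a dim one down.

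Receptor families recurred among the called probes, and their lists were put together after that was seen. Of 17 measured C-type lectins 4 were down. Clec4n (dectin-2) read 208 and 251 against 373 and 466, a log2 ratio of -0.87 ± 0.04, and Clec7a (dectin-1) read 970 and 1081 against 1541 and 1673, a ratio of -0.65 ± 0.03. Clec4d and Clec4a3 were at -0.72 and -0.66. The dectins, receptors of myeloid cells, bind sugars of microbes. All 9 measured Ms4a genes lay below 0 on both arrays, with Ms4a7 and Ms4a6c down. Ms4a4b, a gene of T cells, had the second largest fall among the called probes. This dim probe read 45 and 58 against 102 and 120, a ratio of -1.12 ± 0.09. Its mean was -0.57 after normexp and loess. The brightest Ms4a4b probe, at -0.97 and -0.39, was not called, and another, at -0.61 and -0.86, was down. Cd53 (-0.60 and -0.68), Cybb (-0.58 and -0.50) and Tlr2 (-0.45 and -0.46) were down as well, and were chosen after their values were seen.

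**Figure D5:**
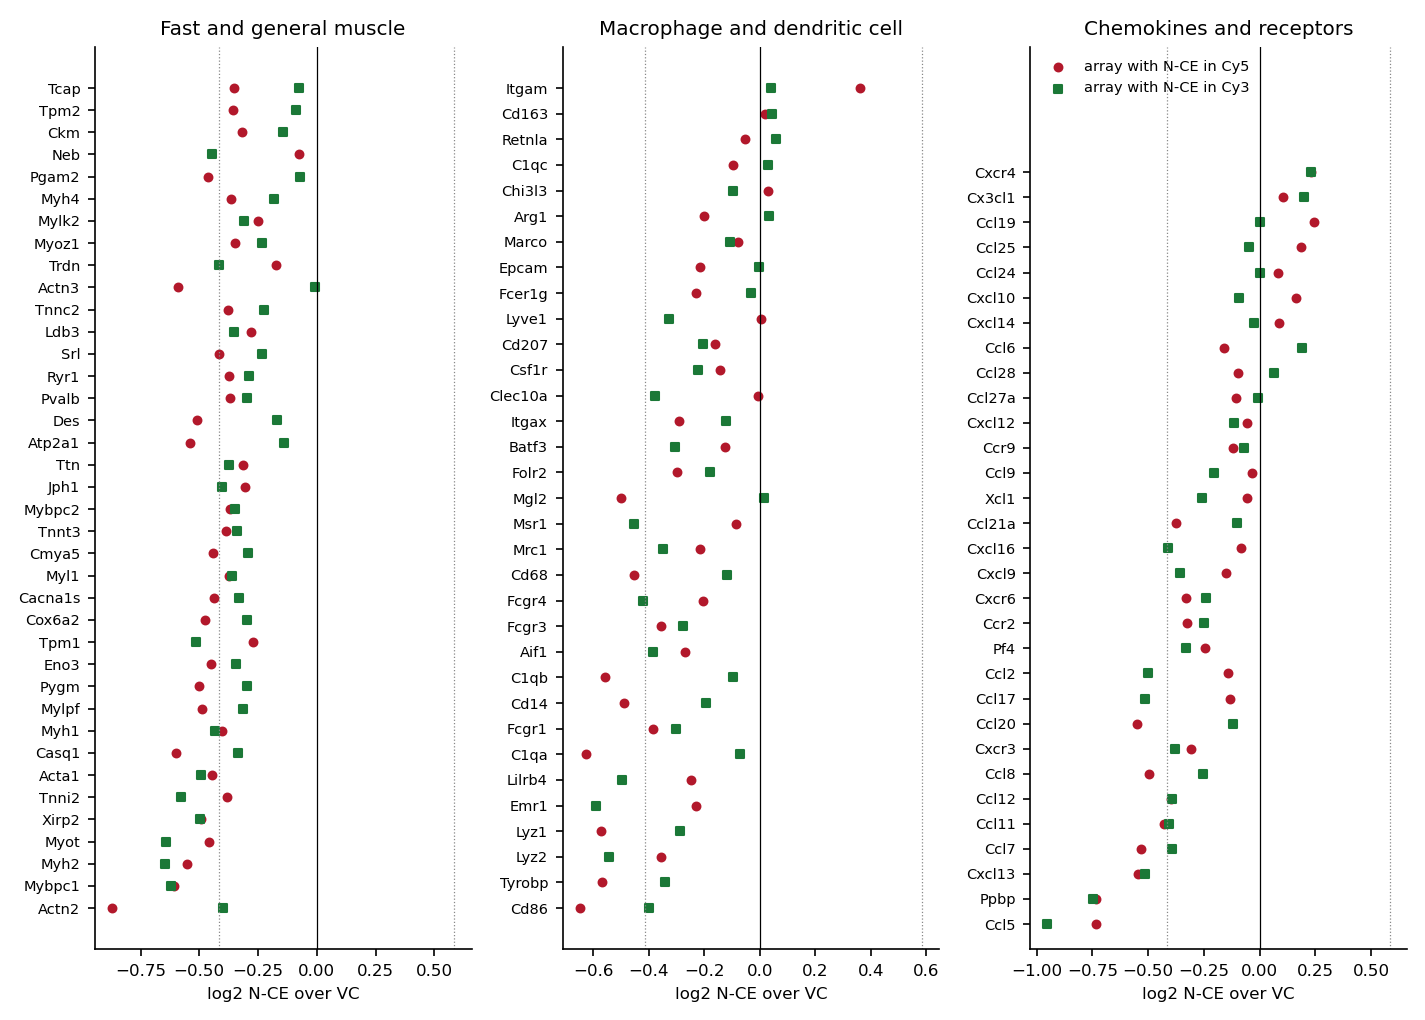
Log2 ratio of N-CE over VC (horizontal axis, with its own range in each panel) for each measured gene of fast and general muscle (left), macrophages and dendritic cells (middle) and chemokines with their receptors (right). Red circles are the array with N-CE in Cy5, green squares that with N-CE in Cy3, and dotted lines folds of 0.75 and 1.5. The right panel leaves out 1 gene. All 38 muscle genes lie below 0 on both arrays.

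Antigen presentation had a median of -0.17 with 25 of 28 genes below 0 and none called. T cell and NK cell genes had -0.16 ± 0.12, with none of 26 called. The 9 killer cell lectin-like receptors, also listed after the values were seen, had a median of -0.40, and Klra7 and Klrb1a were down, at signals of 30 to 68. Interferon-induced genes had -0.17 with Tgtp1 down of 43. The 7 B cell and plasma cell genes measured had a median of -0.26. Igj (Jchain), which joins IgA and IgM chains, read 75 and 88 against 147 and 175, a log2 ratio of -0.98 ± 0.01. Normexp and loess put Igj at -0.57. Cd79b of the B cell receptor was at -0.60 and -0.63. The 3 called Igh-VJ558 probes may read shared immunoglobulin sequence. Il1a was the 1 interleukin gene down of 40, at -0.81 and -0.67, and its VC channels differed by 0.99 between the N-CE and MXD arrays. Mast cell genes had a median of -0.10, with Hpgds down at -0.43 and -0.42.

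Globin genes fell together. Hba-a1 read 11642 and 11591 against 20089 and 19394, a log2 ratio of -0.76 ± 0.03, and Hba-a2 was alike at -0.76 ± 0.01. All 4 probes of Hbb-bt were down, with means between -0.86 and -0.75. Each N-CE channel was below the VC channel of its array. The alpha globin genes are near copies and their probes may read both, as may those for beta globins. Alas2, the first enzyme of heme synthesis in red cells, was at -0.51 and -0.34, and Slc4a1, the anion exchanger of their membrane, at 0.10 and 0.17. The list's median was -0.23 ± 0.12, with 3 of 13 down.

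Hamp2, a hepcidin gene, had the next largest fall among the called probes after those of Slc15a2 and Ms4a4b. It read 1193 against 2239 and 1109 against 2636, a log2 ratio of -1.08 ± 0.24. It was the 1 gene down of 23 in iron homeostasis, whose median was -0.16. Hamp was above background in the VC channel of 1 array alone. Cyp2e1, a liver enzyme also found in fat, was down at -0.60 and -0.50. Of the other liver markers Alb read 60 to 88 and Apoa2 and Ttr were not well above background in both pools.

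Fat genes were lower in 20 of 21 cases, with a median of -0.20 ± 0.03 and none called. Adipoq was at -0.42 and -0.22, and Cidea was the exception at 0.13 and 0.17. In the list of prostaglandin genes and minoxidil targets, with a median of -0.18, Abcc9, the sulfonylurea receptor of the potassium channel that minoxidil opens, was down at -0.44 and -0.53. Ptgds, the prostaglandin D synthase, was the highest at 0.49 and 0.46. Hpgds, its hematopoietic counterpart, is in this list too. Adenosine receptors and handling had a median of -0.12 with none called.

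Of 29 immediate early genes 3 were down, although their list had a median of 0.02. Fos read 575 and 612 against 802 and 1061, a log2 ratio of -0.64 ± 0.22. Dusp1 was at -0.53 and -0.87 and Atf3 at -0.47 and -0.75. Egr1 was at 0.32 and 0.11 and Jund at 0.10 and 0.45, so the list did not move as one.

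The remaining lists held few called genes. F10 was down in coagulation (median -0.14, 14 of 16 below 0), Prox1 and Thbs2 in angiogenesis (-0.09), Btc in growth factors (-0.03), Col4a3 in collagens (0.04) and Dsc1 in desmosomes (-0.03). None was called among neutrophil genes other than Clec4d, nor in autophagy (-0.04), the hypoxia response (-0.14), the circadian clock (-0.09), oxidative phosphorylation (-0.06), cholesterol synthesis (0.07), BMP signals (0.06), Wnt genes (0.11), matrix proteases (-0.11), sebaceous gland (0.06), nerve (-0.00), wound keratins (-0.10) or glandular secretory genes (0.07). Among the 12 genes with the largest falls, Tfec read 33 and 38 against 65 and 70, B3galt2 was at -0.76 and -0.98, Dusp27 at -1.19 and -0.51, and Cnr2 at -0.57 and -1.12. After normexp and loess the means of Tfec, Dusp27 and Cnr2 were -0.37, -0.21 and -0.24 and their calls were lost, while B3galt2 kept its call. Itgb1 was down on a dim probe while its bright one was at -0.27 and 0.17.

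A few probes were above background in 1 pool alone on both arrays, and for these only a bound can be given. There were 3 with N-CE as the brighter pool and 13 with VC. Gzma, a granule protease of NK and T cells, was at least 1.40-fold lower in N-CE, and Fpr2, a formyl peptide receptor of myeloid cells, at least 1.23-fold lower. Angptl1, Fbxo36 and Lhx8 had bounds of 1.24, 1.23 and 1.20. Another Angptl1 probe, above background throughout, was down at -0.64 and -0.67. On the other side Fam73b was at least 1.16-fold higher. All of these bounds lie under 1.5.

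Set beside the other comparisons, the values at 3W had the following neighbours. With MXD at 3W, which shares the VC pool and the slide, the medians were 0.36 for clustered histones, 0.45 for pigment genes, 0.37 for mitosis, -0.03 for macrophage genes and -0.07 for chemokines. Single immune genes were low there too, with Ccl5 at -0.73 and -0.86 on its probes, Igj at -0.94, and the Igh-VJ558 probes between -0.87 and -0.73. With N-CE at 2W they were 0.14, 0.44, 0.27, -0.21 and -0.02, and with N-CE at 1W -0.46, -1.34, -1.03, 0.27 and 0.25. Each week has its own VC pool and slide, so week, slide and pool cannot be told apart. Slc15a2 was at 0.48 ± 0.04 with N-CE at 1W and 0.39 ± 0.26 at 2W, and at -0.87 ± 0.20 with MXD at 3W. Flg was at -0.07 ± 0.08 with MXD at 3W, where both arrays lay below 0, and at 0.85 ± 0.08 with MXD at 1W. Hoxb8 was at 0.33 ± 0.05 with MXD at 3W, 1.57 ± 0.16 with MXD at 2W and 0.75 ± 0.48 with N-CE at 2W. Mlana was at 0.73 ± 0.07 with MXD at 3W and 0.53 ± 0.31 with N-CE at 2W.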

How the data were processed

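RNA of whole back skin was labelled with Cy3 and Cy5 and hybridized to Agilent Whole Mouse Genome arrays. The authors deposited intensity per channel, raw and as processed signals (background subtracted, dyes normalized by LOWESS). The version of Agilent Feature Extraction is 12.0.3.1 in the file headers and 11.0.1.1 in the submitters' processing notes, and probe positions are on mm9. The deposited series matrix holds log10 of Cy5 over Cy3, equal to the ratio of processed intensities within 5.0e-09. The deposited p-value per spot, from the authors' error model, served an alternative rule only.

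The tools were limma 3.58.1 in R 4.3.3, and pandas 2.3.3 and numpy 2.4.6 under Python 3.11.15. Control spots, spots flagged as outliers and spots not well above background in both channels were left out, log2 ratios were turned to N-CE over VC by the dyes in the labels, and spots of a probe were averaged. Calls need a fold above 1.5 or below 0.75 on both arrays, the folds of the study. In lists a gene is its brightest probe. Bounds used normexp with an offset of 50, loess and Aquantile. Gene names are those of the files, and 27816 of 41174 probes have an accession in the RefSeq table. The arrays of a pool limit the precision, since 1 pool a side allows no test. The code for the calls was tested on simulated data.

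Members, 52 gene lists and the rule for naming genes were chosen with earlier results of these data known. The rule allows Slc15a2, Mlana, Flg and Hoxb8, the 12 highest and 12 lowest called genes, the called, highest and lowest members of lists, the 5 largest bounds each way and 4 hair genes of the study (Lef1, Dsg4, Fgf2 and Pax6). A further 6 lists were added after the data were seen. Alternatives covered the call rule, background correction, the filter on dim spots, centring, outlier spots, each array alone, the matrix and the unit counted. Values of some genes are not reported here.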

Additional observations from a re-analysis of the deposited data

Results flagged for a closer look

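Several results at 3W had the opposite sign in N-CE at 1W on both arrays of each week. The differences between weeks were not tested, since each week is 1 pool a side, and week, slide and VC pool cannot be told apart. Lists above 0 at 3W had these medians at 1W: -1.34 for melanin synthesis, -1.03 for mitosis, -0.91 for anagen regulators, -0.48 for DNA replication, -0.46 for clustered histones, -0.14 for bulge genes and -0.13 for the Hedgehog pathway. Lists below 0 at 3W had medians at 1W of 0.45 for interferon-induced genes, 0.42 for T cell and NK cell genes, 0.27 for macrophage genes, 0.25 for chemokines, 0.24 for adipocyte genes, 0.20 for antigen presentation and 0.13 for prostaglandin genes and minoxidil targets. Among single genes, Mlana was at -0.89 at 1W, and Slc15a2 at 0.48 at 1W and 0.39 at 2W.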

How the results depend on the processing

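The counts of probes up and down, 57 and 270, depended on the rule. A mean fold with no demand on each array gave 143 and 584, and folds of 2 and 0.5 gave 1 and 2. Symmetric folds left 61 down, and the software's P 50 down. Normexp with loess gave 18 and 76, loess with no background correction 18 and 73, and probes above the median signal 23 and 84. With no filter on dim spots there were 234 and 1469, with a filter on at least 1 channel 104 up, and by gene name 37 up. Each array alone gave 266 to 308 up and 923 to 1080 down. Up took 17.4% of the calls, 48.3% with symmetric folds and 52.4% with the software's P. The probes that differed between VC channels, 913, became 2324 by the mean fold, 175 with folds of 2 and 0.5, 3000 with no filter, and 1892 to 6251 with 1 dye alone. Of 29 list medians over 0.1 in size, all measured ones kept their sign under each alternative run, with 27 measured among probes above the median signal. Of the list medians followed one by one, 170 values stayed within 1 SD and 33 moved further. Among probes above the median signal the Hedgehog pathway came to 0.07 from 0.22 and prostaglandin genes and minoxidil targets to -0.06 from -0.18. Single genes stayed within 1 SD in 200 values and moved further in 41, none with a change of sign. Many of the 200 could not move. The matrix, the filters on dim spots and the outlier spots left these probes at the same value. Each array alone lies within 1 SD of the mean by construction. The 41 all came from normexp with loess and from loess with no background correction. The cause of these shifts was not tested. No paired analysis was possible because each side is 1 pool, and the slide as a block was not run, as both arrays lie on 1 slide. Signal over background limits the dim probes most.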
